A study of Mus musculus with 12 samples.

Results

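The wild-type newborn eye was profiled here by setting ribosome footprints against mRNA, transcript by transcript, with no knockout in the comparison. The 6 wild-type libraries, 3 of footprints and 3 of mRNA, were taken from the 12 of the study, which also holds 6 libraries of eyes without RNG140 (RNG140KO), an RNA-binding protein encoded by Caprin2. The eyes were collected at postnatal day 0.5, the wild-type mice carried no stated allele, agent or treatment, and the labels name no strain. The labels number the libraries of each kind 1 to 3 without saying whether they came from separate animals or pools, so p-values speak only of how far these libraries scatter, and some of that scatter may be technical. Neither the files nor the tables used here pair the transcript identifiers with genes, so the tissue label was not checked against marker genes, no gene is named, and transcripts are described by the length listed beside each identifier. That listed length has no stated unit, so short and long are used only to compare one transcript with another.

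Ribosome profiling sequences the short stretches of mRNA that ribosomes shield from nuclease, so its counts follow both the amount of an mRNA and how densely ribosomes sit on it. Dividing footprints by mRNA gives a ratio often called the translation efficiency. Here it sets scaled read counts against scaled read counts, so it is not a number of ribosomes per mRNA molecule. A level in either assay is not corrected here for transcript length, and neither is the ratio. The newborn eye holds a lens that makes large amounts of crystallin protein, a retina that still divides, and muscle, skin and connective tissue around the globe. In such a mixed tissue fewer cells of a type and less RNA per cell cannot be told apart.

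Of 63759 listed transcripts, 46419 had a listed length, and the other 17340 had no count in any library. Of those 46419, 23871 had 10 or more counts in each assay when its 3 libraries were added up, and keeping each distinct set of 6 counts once left 20727 features. A feature is therefore a transcript, or several transcripts counted over the same reads. The remaining transcripts with a length were not tested: 5428 had no count in a wild-type library, 11860 had some counts but under 10 in both assays, 2751 reached 10 in footprints only and 2509 in mRNA only. The median listed length was 220 for those reached in footprints only and 446 for those reached in mRNA only, against 481 for the features tested.

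Total counts were 327847, 847125 and 5966639 in footprint libraries 1, 2 and 3, and 1244104, 666464 and 728736 in the mRNA libraries. Features held between 85.6% and 87.3% of these. Across features, mRNA libraries had Spearman correlations of log2 CPM (counts scaled to a common library total) from 0.843 to 0.908 with each other, and footprint libraries from 0.617 to 0.810. Footprint library 1, the shallowest, had a higher correlation with each mRNA library (0.718 to 0.727) than with footprint library 3 (0.617). Footprint library 3 had a correlation of 0.465 with mRNA library 1 and of 0.640 with mRNA library 3. Results are therefore given library by library, and with and without footprint library 1.

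Footprints and mRNA differed widely from feature to feature. Of the 20727 features tested with edgeR's quasi-likelihood test, 1862 (8.98%) were higher and 1330 (6.42%) lower in footprints relative to mRNA at an adjusted p under 0.05, together 15.4%. The median log2 ratio was 2.02 among those higher and -1.79 among those lower, and each of the 3192 called features differed by a log2 ratio of at least 1.16 in size. Features higher in footprints had a median listed length of 224 and those lower one of 904.5. The 3 footprint libraries lay wholly above or wholly below the 3 mRNA libraries in 6590 features, or 31.8%.

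The number of calls rested on which libraries were kept, while the directions did not. It was 6338 without footprint library 1, 1170 without footprint library 2, 1741 without footprint library 3, 94 without mRNA library 1 and 86 without mRNA library 2. All 3192 features kept the sign of their ratio in each of the 6 fits that left out 1 library, and 72 of them (42 higher, 30 lower) were called in every such fit. These fits reuse the libraries that made the calls. Directions are relative to TMM scaling, a trimmed mean that sets the typical feature near a log2 ratio of 0. When libraries were scaled to their totals instead, ratios moved down (median shift -1.01), and 298 features were then higher and 3724 lower, so that 7.41% of calls were higher in place of 58.3%.

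Over all features the log2 ratio had an SD of 1.12, against a median standard error (SE) of 0.50 for a single feature. The 10th and 90th percentiles were -1.29 and 1.52, a 7.02-fold range, and the 1st and 99th were -2.28 and 2.94, a 37.2-fold range. Part of this spread is counting error, since the median feature had 5, 9 and 39 counts in the footprint libraries and 26, 13 and 14 in the mRNA libraries. When the libraries of each number were set together as separate ratios, although the labels state no such pairing, ratios 2 and 3 had a Pearson correlation of 0.690 across features, and ratio 1 had correlations of 0.504 and 0.468 with them. These ratios share no library, and for the 3685 features with at least 100 counts in each assay the same correlations were 0.872, 0.787 and 0.684.

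The ratio was lower at longer listed lengths. Across features its Spearman correlation with listed length was -0.536, and a line on log2 length, with a slope of -0.57 per doubling, accounted for 29.3% of the variance. This is a description across features, which share libraries and partly share reads. The correlation ran from -0.564 to -0.397 when 1 library was left out, with -0.553 without footprint library 1 and -0.397 without footprint library 3, and it was -0.616 among features with at least 100 counts in each assay.

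**Figure D1:**
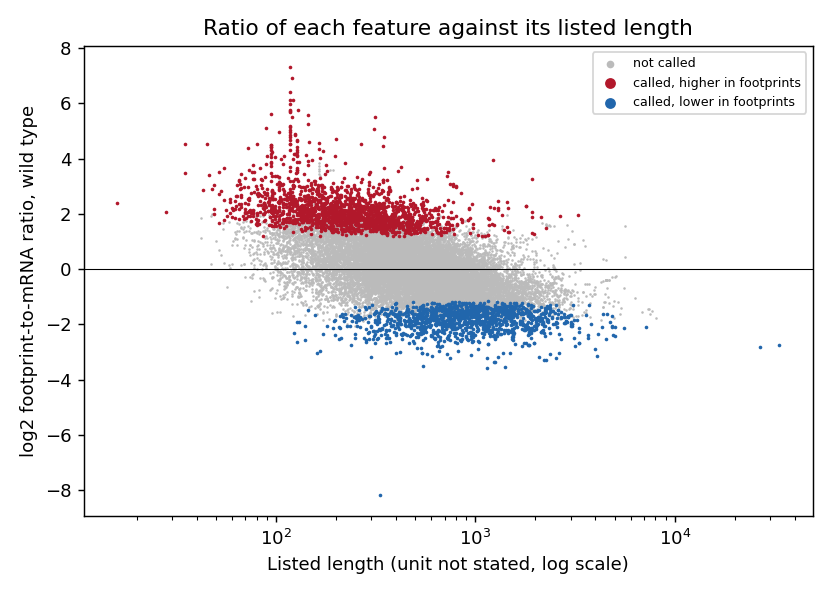
Each point is 1 of the 20727 features, with its listed length (unit not stated, log scale) on the horizontal axis and its wild-type log2 footprint-to-mRNA ratio on the vertical axis. Called features (edgeR adjusted p under 0.05) are red where footprints were higher and blue where they were lower, and red points gather at short and blue points at long listed lengths.

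Short features had the highest footprint-to-mRNA ratios. Of 270 features with a listed length up to 90, 135 were higher and 0 lower, with a median log2 ratio of 1.78, where 8.98% and 6.42% of all features were called in the respective directions. No feature of this class was called lower, and 94.1% had a ratio above 0. The class had a median mRNA level of only 7.82 CPM. At such levels the minimum of 10 footprint counts keeps out features with low ratios. The absence of lower calls is therefore not read as a result about length, and the limit is weaker in classes with more mRNA. In the second class, which starts above 90 and has a median listed length of 130, 469 of 1467 features were higher and 9 lower, with a median log2 ratio of 1.22. In the third class, which ends below 300 and has a median listed length of 233, 631 of 3648 were higher and 52 lower, with a median log2 ratio of 0.67. Among features with at least 100 counts in each assay the first and second class stood in the other order, with a median of 1.59 in the class up to 90 (10 of 28 higher) and 1.82 in the second class (101 of 221 higher), and this difference was not tested. From the second class on the medians declined under that filter too.

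The middle of the range lay near the typical feature. From 300 to under 500, 435 of 5402 features were higher and 167 lower, with a median log2 ratio of 0.23. From 500 to under 1000 the balance turned, with 158 of 6793 higher, 517 lower and a median of -0.30. Called features were a small part of each.

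Long features had low footprint-to-mRNA ratios. Of 3020 features from 1000 to under 3000, 33 were higher and 546 lower, with a median log2 ratio of -0.83. Of 127 features of 3000 and over, 1 was higher and 39 lower, with a median of -1.28, and 9.45% had a ratio above 0. Scaling to library totals kept the order of the 7 classes but put the medians of the third class and of the class from 300 to under 500 below 0, at -0.40 and -0.79. Their calls turned with it, to 75 higher and 267 lower in the third class and 33 higher and 656 lower from 300 to under 500. Without footprint library 1 the medians of the shortest and the longest class were 2.06 and -1.52. Without footprint library 3 they were 1.30 and -0.92, and the medians of the third class and of 1000 to under 3000 were 0.42 and -0.53.

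The order of the classes was the same in each footprint library, but its steepness was not. Relative to the mean of the 3 mRNA libraries, the class up to 90 had median log2 differences of 0.80, 1.40 and 2.16 in footprint libraries 1, 2 and 3, and the class of 3000 and over had -0.66, -0.91 and -2.06. The mRNA libraries also departed from their own mean with length. Their medians were -0.30, -0.19 and 0.54 in the shortest class and 0.26, 0.17 and -0.45 in the longest. In the longest class mRNA library 3 thus lay nearer to footprint library 1 than to the other mRNA libraries.

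**Figure D2:**
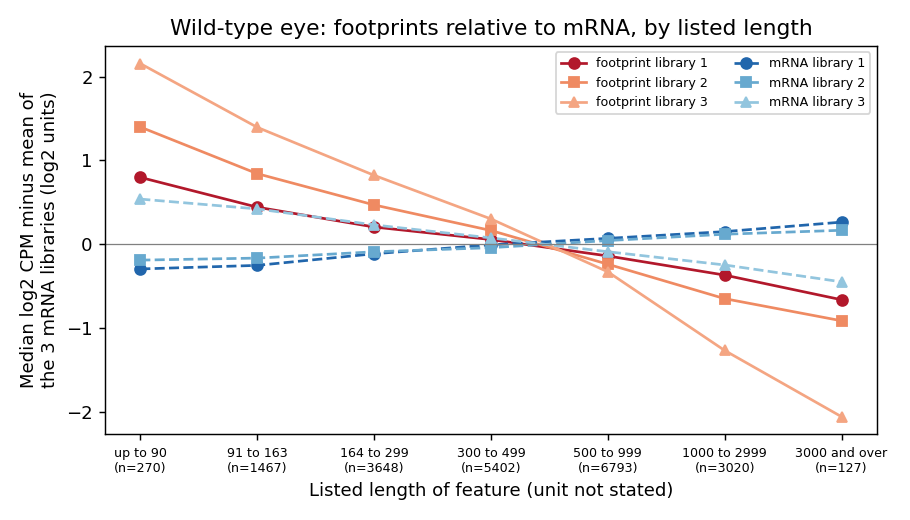
The vertical axis is the median, over the features of a listed-length class, of log2 CPM in 1 wild-type library minus the mean of the 3 mRNA libraries, with the class and its number of features on the horizontal axis. Solid lines are footprint libraries and dashed lines mRNA libraries, and footprint library 3 runs from 2.16 to -2.06 where footprint library 1 runs from 0.80 to -0.66.

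The dependence on length was also measured in each library alone, by a line fitted to log2 CPM against log2 listed length. Its slope was 0.35, 0.13 and -0.20 per doubling in the footprint libraries and 0.66, 0.63 and 0.38 in the mRNA libraries, so the highest footprint slope lay just below the lowest mRNA slope. The means were 0.09 ± 0.28 for footprints and 0.56 ± 0.15 for mRNA (SD, n = 3), a difference of -0.46. It was -0.59 without footprint library 1 and -0.32 without footprint library 3. The two-sided exact permutation test on all 6 libraries gave p = 0.1, the smallest that 3 against 3 libraries allow. The positive mRNA slopes are of levels not divided by length, and longer transcripts can give more reads per molecule.

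Counts of footprints were gathered in short features. Features of the second class (above 90, median listed length 130) held 12.4%, 21.7% and 30.8% of the counts in footprint libraries 1, 2 and 3, against 4.40%, 4.99% and 9.88% in the mRNA libraries. Those of the third class (below 300, median listed length 233) held 21.5%, 32.9% and 36.9% of footprint counts and 11.0%, 11.5% and 19.2% of mRNA counts. In both classes all footprint libraries lay above all mRNA libraries, by 15.2 and 16.5 percentage points on average.

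The long classes showed the reverse. The shares of a library add up to its whole, so higher shares in some classes require lower shares in others. The tests of the classes are therefore not independent findings. Features from 500 to under 1000 held 22.7%, 15.3% and 11.3% of footprint counts and 30.7%, 29.8% and 25.5% of mRNA counts, without overlap. Features from 1000 to under 3000 held 25.7%, 15.1% and 6.24% of footprint counts and 33.0%, 33.5% and 24.3% of mRNA counts, where footprint library 1 lay above mRNA library 3. Over the 7 classes, the exact permutation test gave p = 0.1 in 5, with a Benjamini-Hochberg adjusted value of 0.14, and p = 0.2 in the 2 whose libraries overlapped, up to 90 and 1000 to under 3000. The other 2 classes without overlap, 300 to under 500 and 3000 and over, differed by -3.20 and -2.18 percentage points (footprints minus mRNA).

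**Figure D3:**
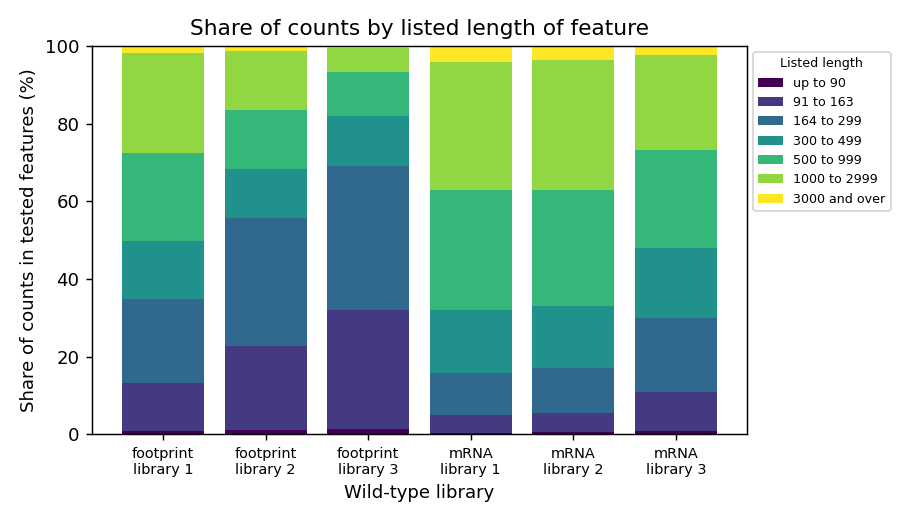
Each bar is 1 wild-type library and splits its counts in tested features (percent, vertical axis) by listed length. The second class and the third, with median listed lengths of 130 and 233, fill more of every footprint bar than of any mRNA bar, and most of all in footprint library 3 (30.8% and 36.9%).

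Footprints were also concentrated in fewer features. The 100 most abundant features of a library held 30.7%, 47.2% and 55.2% of its footprint counts but 10.7%, 12.9% and 18.6% of its mRNA counts, and no footprint library overlapped an mRNA library. The means, 44.4 ± 12.5% and 14.1 ± 4.08% (SD, n = 3), differed by 30.3 percentage points (exact permutation p = 0.1, the smallest possible). That difference was 37.1 points without footprint library 1 and 24.9 without footprint library 3. Adjusted over all 9 tests between libraries, the slope, this share and the 5 classes without overlap had a value of 0.129. The features that together held 50% of the counts numbered 1004, 137 and 68 in the footprint libraries and 2371, 2173 and 1767 in the mRNA libraries. Reads shared by several features can enter these shares more than once. The features ranked 1, 2 and 3 in footprints had mean CPM of 34232, 34075 and 33949, near equal, as features that share reads would. Neither these shares nor those by length class were recomputed with near-identical features merged.

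The most abundant features of the 2 assays were only partly the same. The 100 with the highest mean footprint CPM and the 100 with the highest mean mRNA CPM had 36 in common. The footprint set had a median listed length of 136.5 and the mRNA set one of 621.5. The mRNA set held 45 features with a listed length of 1000 or more, and the footprint set 6, all of them also in the mRNA set. Both sets were chosen by levels that enter the ratio, so their ratios are not given as support.

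The feature with most footprints belonged to the third length class. Its TMM-scaled CPM was 9931, 31969 and 60795 in footprint libraries 1, 2 and 3, and 1663, 1959 and 5050 in the mRNA libraries, where it ranked 5. All footprint libraries lay above all mRNA libraries, yet with a log2 ratio of 3.57 (SE 1.50) the feature did not pass the test (edgeR adjusted p = 0.114). The footprint libraries differed among themselves by more than the mRNA libraries did. Of single listed lengths, 165 held the largest mean share of footprint counts. Its 16 features had 4.30%, 9.47% and 9.59% of them in libraries 1, 2 and 3, and 0.794%, 0.835% and 2.11% of mRNA counts.

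Some abundant long features were not called in either direction. A pair of features of listed length 1272 had the highest mRNA levels, and the first of them had 5784, 12868 and 12004 CPM in mRNA and 30321, 21380 and 8168 CPM in footprints. The groups overlapped, and the log2 ratio of 0.97 (SE 1.27) did not pass the test (edgeR adjusted p = 0.630). A feature of listed length 1444 had 1816, 1596 and 1537 CPM in mRNA and 3630, 9011 and 6591 CPM in footprints, which did not overlap, with a log2 ratio of 1.96 (SE 0.91, edgeR adjusted p = 0.149).

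The longest features, listed at 33458 and 26877, were low in footprints. The first had 2273, 1913 and 1512 CPM in the mRNA libraries, where it ranked 13, and 387.0, 331.8 and 138.1 CPM in the footprint libraries. Every footprint library was lower than every mRNA library, with a log2 ratio of -2.74 (SE 0.71, edgeR adjusted p = 0.0216). The second had a log2 ratio of -2.81 (SE 0.69, edgeR adjusted p = 0.0180), and its counts stood in a like proportion to those of the first in each library, as features that share reads would, so they are not counted as separate findings.

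The naming rule ranked features by adjusted p and took the first 2 on each side that had at least 100 counts in each assay and no overlap between assays. On the high side these were uc008zrl.1 and uc008dlv.1, and on the low side uc007wzp.3 and uc009jjp.1. Their ratios kept their sign in every alternative run on them. All 4 calls were lost without mRNA library 1 and without mRNA library 2, where edgeR adjusted p values lay between 0.0605 and 0.0730, with folds of like size. Without footprint library 1 the log2 ratios of uc008zrl.1, uc008dlv.1, uc007wzp.3 and uc009jjp.1 were 3.83, 3.30, -2.87 and -2.47, and all 4 calls held.

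The transcript uc008zrl.1, of listed length 117, had 362.0, 441.8 and 942.0 CPM in footprint libraries 1, 2 and 3 and 32.6, 49.1 and 67.5 CPM in the mRNA libraries. Its lowest footprint value was above its highest mRNA value, and library 3 was highest in both assays. The log2 ratio was 3.56 (SE 0.60, edgeR adjusted p = 0.00566). The transcript uc008dlv.1, in the second length class, had 193.5, 247.1 and 471.0 CPM in footprints and 27.3, 40.3 and 45.0 CPM in mRNA. Its footprints were again higher in all 3 libraries, with a log2 ratio of 3.03 (SE 0.52, edgeR adjusted p = 0.00588).

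The transcript uc007wzp.3, of listed length 1956, had 68.7, 52.3 and 37.3 CPM in footprints and 335.9, 351.2 and 297.3 CPM in mRNA. The mRNA values were close together and the footprint values lay far under them, for a log2 ratio of -2.67 (SE 0.49, edgeR adjusted p = 0.00698). The transcript uc009jjp.1, of listed length 3649, had 53.1, 52.3 and 35.3 CPM in footprints and 270.2, 289.5 and 167.4 CPM in mRNA. Its log2 ratio was -2.40 (SE 0.47, edgeR adjusted p = 0.00923), and library 3 was lowest in both assays. With the length trend of each library taken out, the ratio of uc009jjp.1 was -1.07 (edgeR adjusted p = 0.0550), and against a 2-fold difference in place of none its adjusted p was 0.0644 (edgeR).

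**Figure D4:**
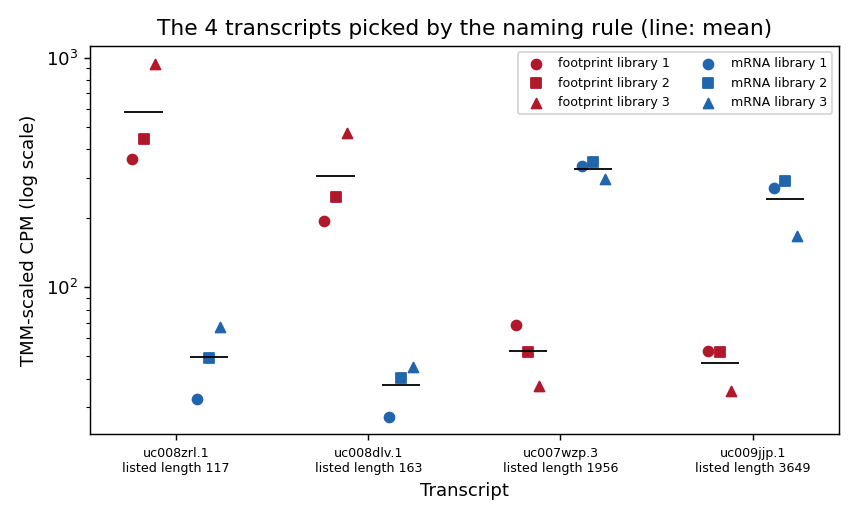
The vertical axis is TMM-scaled CPM (log scale) of the 4 transcripts picked by the naming rule, with footprint libraries in red, mRNA libraries in blue, 1 symbol per library number and a line at each mean. For each transcript all footprint libraries lie on one side of all mRNA libraries, from 362.0 to 942.0 against 32.6 to 67.5 for uc008zrl.1.

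A few listed lengths stood out among the features with the highest ratios. This was seen after the values were known and is given as a description without a test. Of 182 features with footprints more than 8-fold higher, 49 (26.9%) had a listed length of 117, 94, 127 or 121, lengths that 121 features, or 0.584% of all, carried. The 30 features of listed length 117 had the highest median log2 ratio, 4.42, among the 430 listed lengths that at least 20 features shared, and the 25 of length 94 were next with 3.17.

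Within length 117 the features fell far apart. In 16 of them the log2 ratio was between 4.32 and 7.30, with 6792 to 41128 footprint counts and 105 to 928 mRNA counts summed over the libraries. In the other 14 it was between 0.12 and 3.71. Several of the 16 had the same footprint counts in all 3 libraries or nearly so, as near-identical copies that share reads would, so how the reads divide among them is uncertain. The feature with the highest ratio of all was one of them, with 1635, 4600 and 11257 CPM in footprints and 21.5, 15.1 and 75.0 CPM in mRNA.

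Together the features of these 4 lengths held 6.77%, 14.0% and 21.0% of the counts in footprint libraries 1, 2 and 3 and 1.01%, 1.19% and 3.31% of those in the mRNA libraries. The share was lowest in library 1 of both assays and highest in library 3 of both. Of the 121 features, 68 were called higher and 2 lower, where 8.98% and 6.42% of all features were called. The lengths were picked for their many features above 8-fold, so nothing is read from this count.

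On the other side, 28 features had footprints more than 8-fold lower, with a median listed length of 1143. All 28 had fewer than 50 footprint counts in total, with a median of 15 against 157 in mRNA, so their ratios rest on few footprints. Of the 182 features more than 8-fold higher, 80 likewise had fewer than 50 counts in mRNA, their lower side. The feature that stood farthest out had a listed length of 332. It held 1048, 2380 and 2721 CPM in mRNA libraries 1, 2 and 3, where its mean ranked 10, but 18.7, 5.41 and 2.87 CPM in footprints, which are 6, 3 and 7 counts. Its log2 ratio was -8.17 (SE 1.04, edgeR adjusted p = 0.00242), and the next lowest ratio was -3.57.

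Some transcripts were seen in only 1 assay. At least 100 footprint counts and no mRNA count were found for 4 transcripts, of which one with listed length 127 had 37, 254 and 2817 footprint counts and one with listed length 28 had 280, 221 and 503. At least 50 mRNA counts and no footprint count were found for 5 transcripts, the deepest with 39, 16 and 9 mRNA counts. Of these 5, 3 had a listed length of 227 and identical counts (17, 16 and 20), as transcripts counted over the same reads would. For such a count of 0, up to 3 counts over the group remain possible, and this limit covers counting error only.

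The relation to mRNA abundance was read with abundance taken from the 3 knockout mRNA libraries, since the wild-type mRNA is the denominator of the ratio. From the least to the most abundant quintile of features, the median log2 ratio went from 0.25 to 0.13, -0.05, -0.20 and -0.33. The median listed length rose over the same quintiles from 338 to 727, so abundance and length moved together. Within each quintile the ratio still declined with length, with Spearman correlations of -0.353, -0.469, -0.499, -0.548 and -0.612. The spread of the ratio was widest among the most abundant features, with an SD of 1.32 against 0.94 in the least abundant quintile. The minimum of 10 footprint counts keeps out low ratios more readily among scarce features. In the least abundant quintile 291 features were called higher and 28 lower, against 413 and 513 in the most abundant. Neither the decline of the median nor the narrower spread is therefore read as a result about abundance.

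With the length trend of each library taken out, an alternative chosen after seeing the data, 1581 features were higher and 1010 lower, and 1873 of these 2591 calls were shared with the calls made before, all in the same direction. The SD of the ratio fell from 1.12 to 0.96. The median listed length was then 387 for features higher and 494.5 for those lower.

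The knockout libraries, none of which enters the wild-type ratio, gave a second measurement of the footprint-to-mRNA ratio for the same features. Their ratio had a Pearson correlation of 0.751 with the wild-type ratio across 20727 features and of 0.806 for those with at least 100 counts in each assay. With a line on length taken out of both it was 0.710. The knockout ratio also declined with listed length, but less closely, with a Spearman correlation of -0.365 against -0.536 for the wild-type ratio. This difference was not tested. In the knockout libraries 23.4% of features were called higher and 21.4% lower (edgeR adjusted p under 0.05). Of the 1862 features called higher in wild type, 1839 had a ratio above 0 in the knockout libraries and 1654 were called higher there. Of the 1330 called lower, 1266 had a ratio below 0 and 935 were called lower. Over all features the sign was shared in 78.8%, and 9 features were called in opposite directions.

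**Figure D5:**
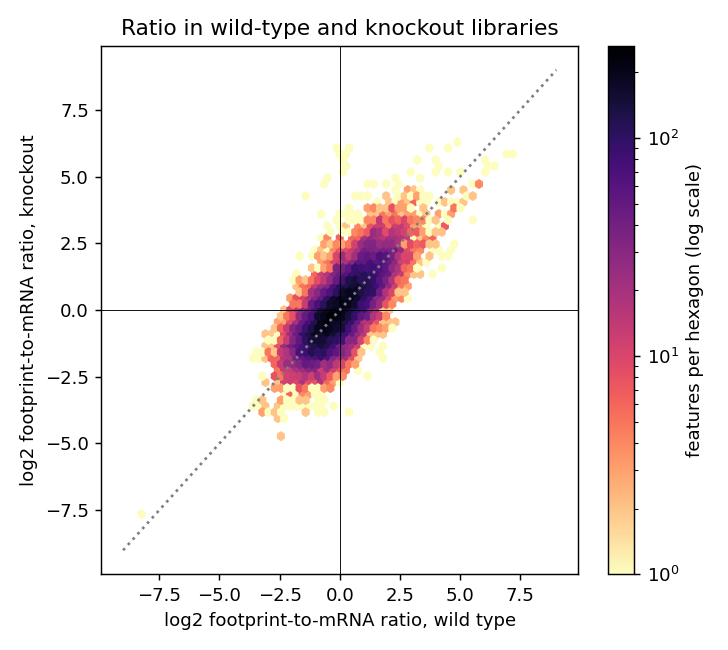
Features are binned by their log2 footprint-to-mRNA ratio in wild-type libraries (horizontal axis) and in knockout libraries (vertical axis), with darker hexagons holding more features (log scale) and a dotted line at equality. Features scatter around the line (Pearson correlation 0.751, sign shared in 78.8%), and the isolated point at the lower left is the feature of listed length 332, at -8.17 and -7.72.

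The 4 named transcripts kept their side in the knockout libraries, where all 4 were called. The log2 ratio there was 3.85 for uc008zrl.1 (SE 0.35), 2.38 for uc008dlv.1 (SE 0.32), -3.82 for uc007wzp.3 (SE 0.35) and -2.29 for uc009jjp.1 (SE 0.31). The features more than 8-fold higher and more than 8-fold lower in wild type kept their sign in 182 of 182 and 28 of 28 cases. The longest features, listed at 33458 and 26877, had ratios of -0.91 and -0.93 in the knockout libraries, against -2.74 and -2.81 in wild type. The feature of listed length 1272 with most mRNA had -1.12 in the knockout libraries against 0.97 in wild type, and that of 1444 had 3.18 against 1.96. In edgeR's test of the difference between genotypes, 1 of 20727 features passed at an adjusted p under 0.05 (2127 at an unadjusted p under 0.05), and it was none of those named here. With 3 libraries per group, a feature that did not pass is not thereby shown to be alike in both genotypes.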

How the data were processed

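Per the labels, ribosomes were pelleted after RNase I digestion, and their footprints were ligated to a linker, depleted of ribosomal RNA, circularized as cDNA and amplified. A TruSeq stranded mRNA kit, which selects polyadenylated RNA, gave the mRNA libraries. An RNA without a poly(A) tail can thus be counted in footprints and missed in mRNA, and which features lack a tail was not determined. The submitters' processing notes name CASAVA 1.8, Bowtie2 2.3.4.2, TopHat2 2.0.9 and mm10. How reads were counted, on which annotation and with what choice for reads matching several transcripts is not given in the sources used here. Deposited by the authors were raw read counts per transcript, one file per library, and beside each a number, identical in all files and of unstated unit, called the listed length (an other value per the file contents, also deposited).

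Features were rows with a listed length and at least 10 counts over the 3 wild-type libraries of each assay, with 1 row kept of each identical set of 6 counts. Footprints were tested against mRNA with edgeR 4.0.16 (quasi-likelihood F test, TMM, Benjamini-Hochberg, adjusted p under 0.05; limma 3.58.1, R 4.3.3), with a prior count of 2 in log2 CPM. SEs were derived from the F statistic. Slopes and shares of each library were compared by two-sided exact permutation tests. Alternatives included DESeq2 1.42.0, other scalings and filters, and each library left out. The naming rule took 2 features in each direction, skipping one whose identifier shared its first 7 characters with one already taken. The members and lists were chosen with earlier results of these data known. On simulated data with 200 changed features of 20727, the test of wild-type footprints against mRNA recovered 37% of those changed 4-fold and 2% of those changed 2-fold, with 2 unchanged features called. The data themselves gave 3192 calls, far more than the features changed in the simulation. Recovery under Benjamini-Hochberg depends on that share, so these percentages need not hold for the data. Same-numbered footprint and mRNA libraries are not stated to be paired. Within wild-type footprints and within wild-type mRNA, no pair of libraries had counts alike within sampling noise (chi-square per degree of freedom 1.88 or more).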

Additional observations from a re-analysis of the deposited data

Results flagged for a closer look

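One feature, of listed length 288, passed the test of the difference in footprint-to-mRNA ratio between genotypes (edgeR adjusted p = 0.0488, a KO minus WT difference of 3.17 on the log2 scale, SE 0.52). In wild type it had 11.7, 23.6 and 33.0 CPM in footprints and 57.8, 41.2 and 46.7 CPM in mRNA, all footprint values below all mRNA values, with a log2 ratio of -0.98 (SE 0.41, edgeR adjusted p = 0.113). In the knockout libraries it had 62.6, 94.8 and 117.9 CPM in footprints and 22.1, 17.2 and 19.4 CPM in mRNA, a log2 ratio of 2.31 (SE 0.32, edgeR adjusted p = 6.72e-07). Its wild-type footprints rest on 4, 14 and 86 counts.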

How the results depend on the processing

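Alternatives were planned, except removing length trends and merging near-identical neighbours. Of 3192 calls (1862 higher, 1330 lower), there were 5254 (2920, 2334) at an adjusted p under 0.10, 5876 (3199, 2677) with all 12 libraries in one model, 557 (345, 212) of 3685 tested with at least 100 counts in each assay, 198 (154, 44) against a 2-fold difference, and 6780 (3640, 3140) with limma voom and sample weights. Library totals gave 298 higher and 3724 lower. With 1 library left out, calls ran from 86 to 6338 (54 to 3546 higher, 32 to 2792 lower), the extremes being without mRNA library 2 and without footprint library 1. Where no construction explains a change, the cause was not tested. With the replicate number as a block, though the labels state no pairing, there were 5722 calls (2962 higher, 2760 lower). Deviations of same-numbered footprint and mRNA libraries correlated at 0.300, 0.0592 and 0.456, and not every pair passed 0.1. With the replicate block the slope difference stayed -0.46, with an exact sign-flip permutation p of 0.25, the smallest possible. The share of calls with the same sign in the knockout libraries (97.3%) ran from 95.9% to 100% with 1 library left out. Medians of the third length class and of 300 to under 500 were -0.40 and -0.79 with library totals, below 0 in place of above. The slope, share and correlation results kept their direction in all alternatives run. The SD of the ratio ran from 1.01 to 1.29, apart from 0.96 with the length trend of each library taken out. Among features with at least 100 counts in each assay the slope difference was -0.57, with an exact permutation p of 0.2 in place of 0.1. The median feature had 5, 9 and 39 counts in footprint libraries 1, 2 and 3, which limits the ratio of a single feature.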
